A study of Sus scrofa with 79 samples.

Results

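T cells are recognised by the proteins they carry on their surface and by the factors that steer them, and the genes of 10 such proteins were chosen for description: CD2, CD3D, CD3E, CD3G, CD4, CD5, CD8A, CD28, CTLA4 and FOXP3. A probe was taken as a member when RefSeq maps the transcript named for it in the scanner files to 1 of these symbols. Of the 10 genes, 8 were found in this way, through 14 of the 43603 probes on the pig array, and CD5 and CD28 were not matched. Gene expression was measured on 1-colour Agilent arrays, 79 in all, each with RNA of a pool of 4 piglets. The jejunum and the ileum were sampled at 8, 55 and 176 days after birth and whole blood at day 8. The piglets of treatment T1 were left undisturbed, apart from handling for blood sampling at day 8, those of T2 received tulathromycin under the skin of the neck at day 4, at a dose of 2.5 mg/kg, and those of T3 received the same antibiotic together with docking, clipping and weighing. The litter of each sow was divided over the 3 treatments and stayed with its sow, so the T1 piglets sampled at day 8 had lived beside treated littermates. The housing of the animals of days 55 and 176 is not given in the sources used here. A group had 4 pools, except that ileum T2 at days 8 and 55, jejunum T2 at days 55 and 176 and ileum T3 at day 176 had 3, which gave 67 intestinal and 12 blood arrays. A pool averages its 4 animals, so the spread between pools is smaller than that between piglets.

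The T cell receptor recognises peptides held by MHC molecules, and it reaches the cell surface only in a complex with the CD3 gamma, delta and epsilon chains, which the genes CD3G, CD3D and CD3E encode. CD2 is an adhesion receptor of T cells and natural killer cells. CD4 and CD8 alpha are the co-receptors that bind MHC class II and class I molecules and divide helper from cytotoxic T cells, and CTLA4 and FOXP3 are the inhibitory receptor and the transcription factor for which regulatory T cells are known. In the gut, CD8-bearing T cells lie between the epithelial cells, while CD4-bearing cells lie mostly in the lamina propria and the Peyer's patches, and the numbers of both are known to grow after birth. Pigs are also known for a large population of blood and gut T cells that carry neither or both co-receptors, so the co-receptor genes do not stand for all T cells. In RefSeq, CD3E, CD3D and CD3G are neighbours on 1 chromosome, CD8A lies next to CD8B, and CTLA4 lies between CD28 and ICOS.

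Values are log2 intensities after quantile normalization, in which every array of a fit is given the same distribution, and they compare 1 gene between arrays but not 1 gene with another. The probes differed in how often their signal was well above the local background, as the scanner software marks it. The probes of CD2, CD3E and the brighter probe of CD8A (A_72_P077466) were so marked on all 79 arrays. Both probes of CD3D were marked on 74 and 77 arrays, both probes of CD3G on 76 and 77, the second CD8A probe (A_72_P685866) and the first CD4 probe (A_72_P077421) on 72, the single CTLA4 probe on 50 and the first FOXP3 probe (A_72_P441214) on 56. The second CD4 probe was marked on 5 arrays and the other FOXP3 probes on 2 and 0, so the gene values of CD4 and FOXP3, which are means over the probes that passed the filter on low values, hold probes close to background and can differ from the brighter probe in either direction. A difference was counted as a change when the limma adjusted p was under 0.05 and the fold was over 1.5. The labels do not say how the animals of days 55 and 176 were divided over the pools, and p-values measure the spread between pools.

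The arrays lay on 11 slides, and every treatment group of a tissue and day lay whole on 1 slide. The tissues of day 8, the blood arrays together with jejunum day 55, ileum day 55, and the tissues of day 176 were scanned in 4 separate sessions, so age cannot be told apart from slide and scan session. Between 57.1% and 75.2% of all probes were well above background on the jejunum and ileum arrays, apart from ileum day 55 T3, with 42.4% to 52%, and 1 array of jejunum day 176 T1, with 47%. In blood it was 34.9% to 44.2%. All 8 of 8 epithelial markers tested, among them EPCAM and CDH1, were well above background on all 67 intestinal arrays. Of the 79 arrays, 11 stood apart, with a median correlation of 0.818 to 0.953 with the other arrays of their tissue and day, the lowest being jejunum day 176 T2 pool 8.

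The arrays that stood apart mattered for the CD3 genes, because 3 jejunum arrays were low in CD3 signal while the other T cell genes were not low on them. These were day 8 T2 pool 8, day 176 T3 pool 4 and day 176 T2 pool 8. Relative to the median of the other arrays of their tissue and day, the log2 departures of CD3D on them were −2.52, −2.79 and −5.37 in that order. The departures of CD3E were −1.4, −1.05 and −4.71, and those of CD3G −3.08, −4.35 and −3.42. Those of CD2 were 0.77, 0.23 and 0.56 and those of CD8A 1.6, 0.72 and 0.42, thus none of these was below that median. Within CD3G the probes parted: probe A_72_P088461 read 3.15, 3.44 and 3.85 on these arrays, in a tissue where the other arrays of its day read over 9, while probe A_72_P761021 read 6.03, 8.05 and 9.5, within the range of the other arrays of the day or, for the last, above it. On these arrays 537, 558 and 2480 of 32007 genes also lay more than 3 log2 units below the other arrays, and 382 genes (1.19%) did so on all 3. Where leaving out these arrays, or all that stood apart, changed a result, the value without them is given.

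**Figure D1:**
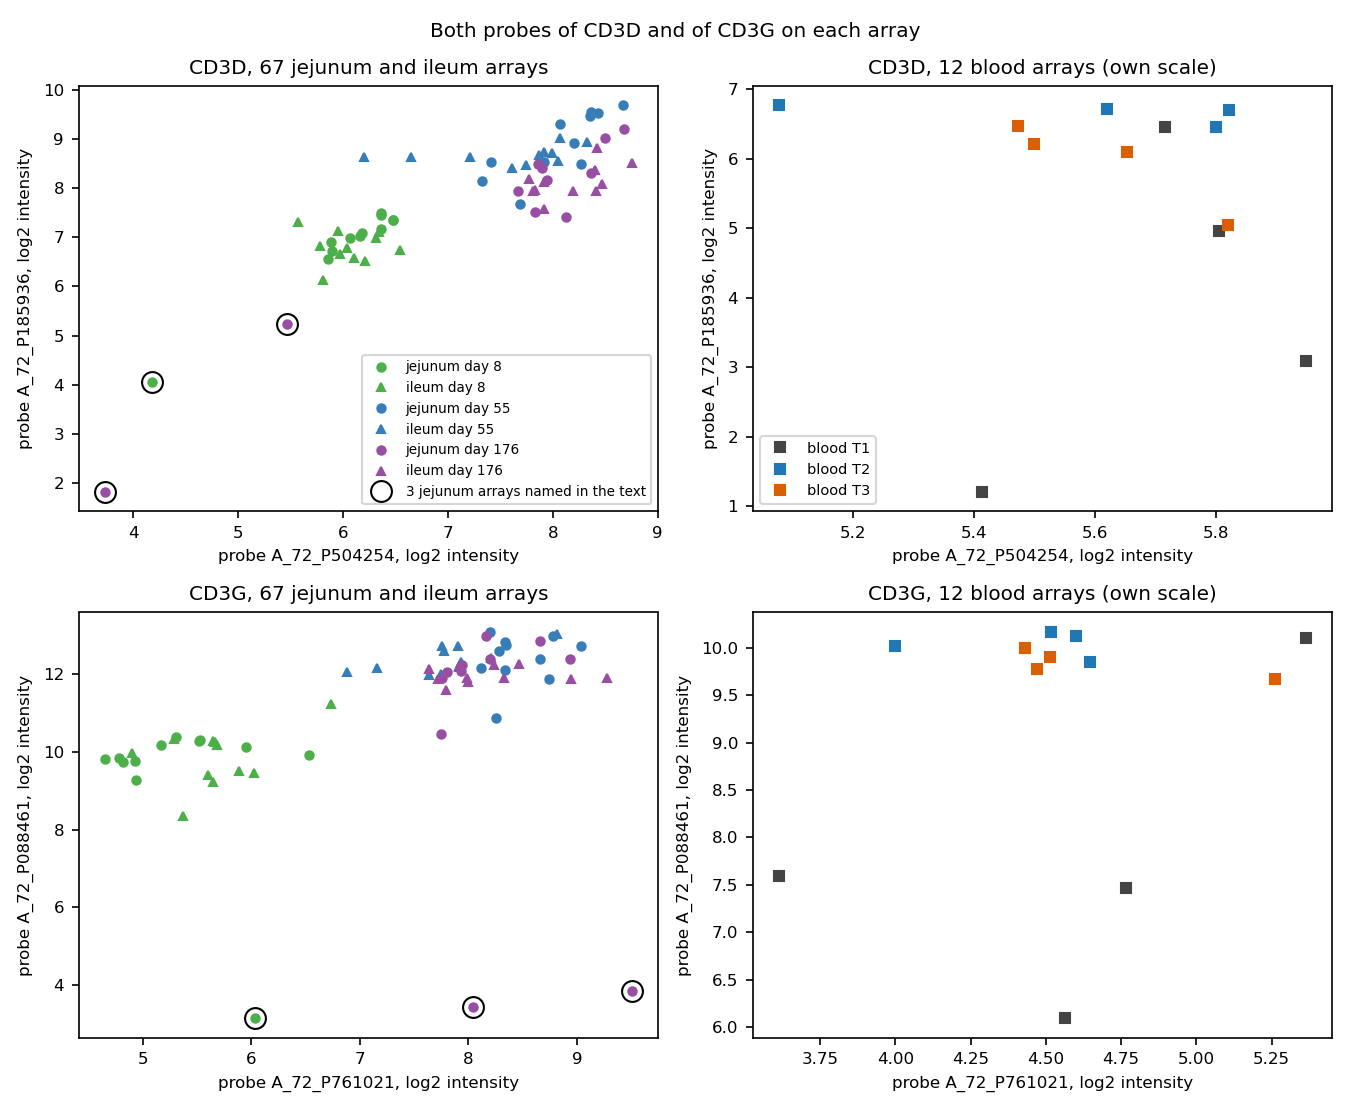
Log2 intensity of one probe against the other for CD3D (top) and CD3G (bottom), 1 point per array; on the left are the 67 jejunum (circles) and ileum (triangles) arrays coloured by day, with rings around the 3 jejunum arrays named in the text, and on the right the 12 blood arrays on their own scale, coloured by treatment. The ringed arrays are low for both CD3D probes and for CD3G probe A_72_P088461 but not for A_72_P761021, and blood T1 pools 9, 10 and 11 are low for CD3G probe A_72_P088461 but not all low for A_72_P761021.

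The T cell genes rose with age in both parts of the small intestine. Between day 8 and day 55, 8 of 8 genes rose in jejunum and 7 of 8 in ileum, where 18.1% and 24.4% of the 32007 genes tested rose (37% and 47.4% changed in either direction). The median difference of the 8 genes was 2.07 on the log2 scale in jejunum and 2.27 in ileum, against 0.03 and 0.11 over all genes. In bulk tissue, more cells of a type and more RNA per cell cannot be told apart, and neither can age and scan session here. The pools of the ages did not overlap at all for 6 of the 8 genes in jejunum and 6 in ileum, where 6.35% and 6.79% of all genes were that clearly higher.

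**Figure D2:**
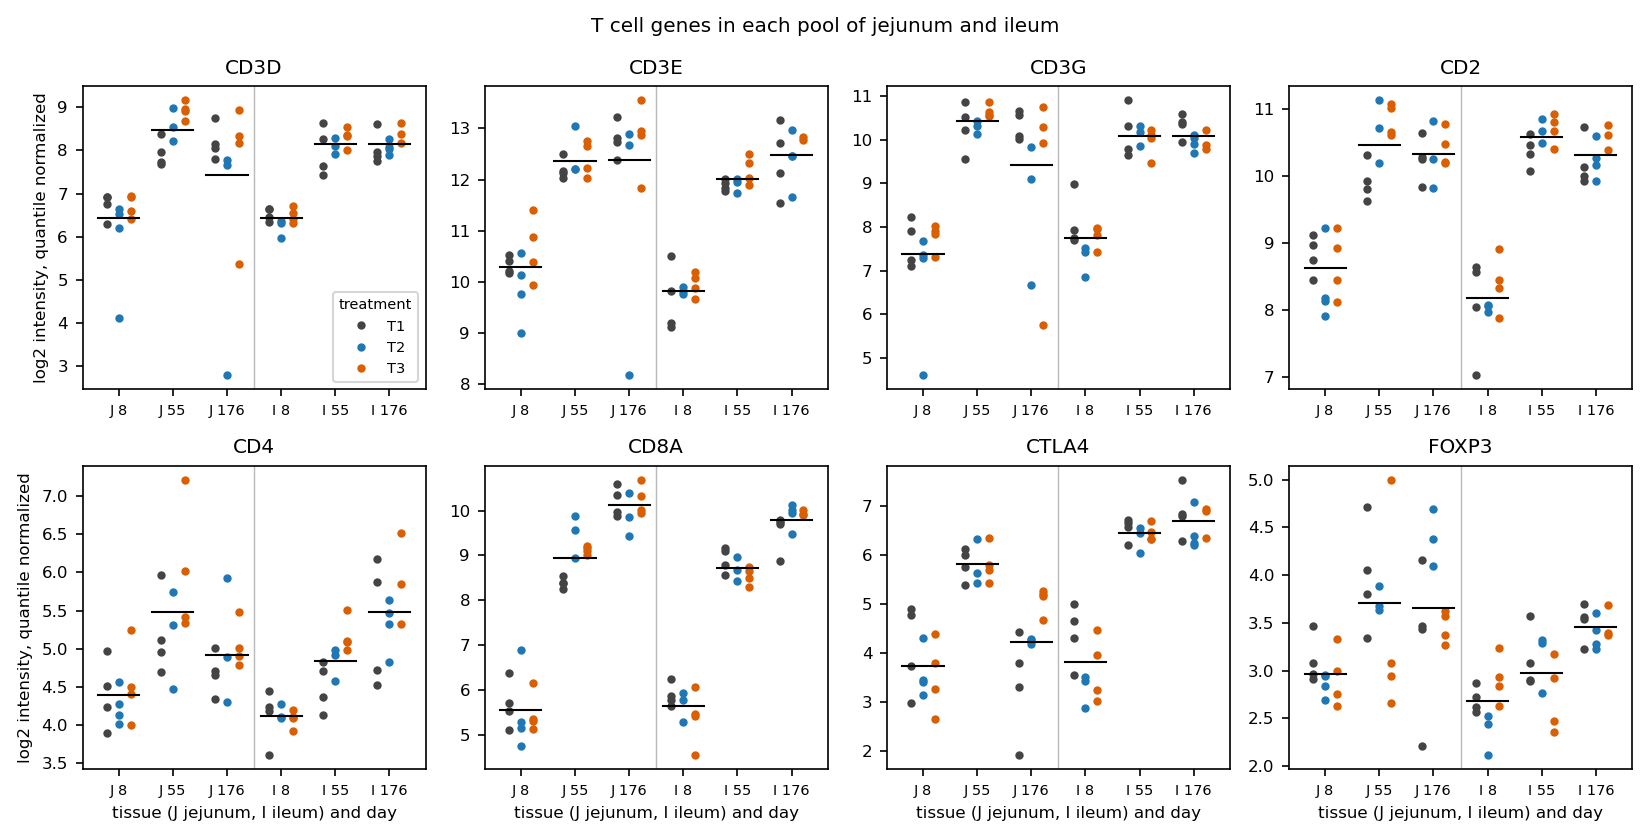
Quantile normalized log2 intensity of each T cell gene (mean of its probes) in every pool of jejunum (J) and ileum (I) at days 8, 55 and 176, coloured by treatment, with the mean of each tissue and day as a line. For CD3D, CD3E, CD3G, CD2, CD8A and CTLA4 every pool of day 55 lies above every pool of day 8 in the same tissue, and the low CD3 values at J 8 and J 176 are the 3 arrays named in the text.

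Of the CD3 chains, CD3E ran from 8.995 to 11.41 in the jejunum pools of day 8 (median 10.3) and from 12.03 to 13.05 at day 55 (median 12.21). In ileum it ran from 9.12 to 10.5 (median 9.83) and then from 11.74 to 12.5 (median 11.96). The ages were thus fully apart, with differences of 2.08 (SE 0.29, limma adjusted p = 2.84e-08) in jejunum and 2.18 (SE 0.3, adjusted p = 1.1e-08) in ileum, which is over 4-fold in each. CD3G rose by 3.04 (SE 0.34) in jejunum and 2.37 (SE 0.35) in ileum, and CD3D by 2.05 (SE 0.33) and 1.73 (SE 0.34). Without the arrays that stood apart the jejunum differences were 2 for CD3E, 2.88 for CD3G and 1.87 for CD3D, and in the T1 pools alone CD3D was 1.22 (adjusted p = 0.0876). From day 8 to day 176 the ileum differences were 2.71 for CD3E, 2.36 for CD3G and 1.76 for CD3D.

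CD2, which the low arrays did not touch, had jejunum pools of 7.91 to 9.23 (median 8.6) at day 8, 9.63 to 11.14 (median 10.61) at day 55 and 9.82 to 10.82 (median 10.26) at day 176. In ileum these were 7.02 to 8.91 (median 8.08), 10.08 to 10.93 (median 10.63) and 9.93 to 10.77 (median 10.27). CD2 was lowest at day 8 and similar at the later ages: the rise to day 55 was 1.86 (SE 0.16) in jejunum and 2.42 (SE 0.17) in ileum, whereas day 176 differed from day 55 by −0.16 (95% interval −0.5 to 0.18) and −0.24 (−0.58 to 0.09), and neither passed the test.

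CD8A, the co-receptor of cytotoxic T cells, differed more between day 8 and the later ages than any other of the 8 genes by the mean of its probes, and it went on rising after day 55. Its jejunum pools ran from 4.75 to 6.9 (median 5.32) at day 8, from 8.26 to 9.88 (median 9.02) at day 55 and from 9.42 to 10.69 (median 10.02) at day 176. The ileum pools ran from 4.54 to 6.25 (median 5.78), from 8.29 to 9.17 (median 8.68) and from 8.88 to 10.12 (median 9.91). Day 8 was apart from both later ages in each tissue, while days 55 and 176 overlapped slightly. The rise from day 8 to day 55 was 10.81-fold in jejunum (log2 3.43, SE 0.18, limma adjusted p = 4.75e-23) and 8.42-fold in ileum (3.07, SE 0.18, adjusted p = 8.33e-21). By day 176 it was 23.4-fold (4.55) and 17.8-fold (4.15). The further rise from day 55 to day 176 was 1.12 (SE 0.18, adjusted p = 1.32e-06) in jejunum and 1.08 (SE 0.18, adjusted p = 4.79e-06) in ileum, of which the ileum value was 0.63 (adjusted p = 0.122) in the T1 pools alone. Both CD8A probes rose, but by different amounts: the brighter probe by 4.65 in jejunum and 3.92 in ileum from day 8 to day 55, the other by 2.21 and 2.23, which is less than CD3G rose.

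CD4, the co-receptor of helper T cells, rose less. From the gene values, day 55 was 1.05 (SE 0.2) above day 8 in jejunum and 0.72 (SE 0.21) in ileum, and day 176 was 0.53 (SE 0.2) above day 8 in jejunum, which is under 1.5-fold, and 1.39 (SE 0.21) in ileum. By its brighter probe alone these 4 differences were 0.85, 0.83, 0.47 and 1.95, and the jejunum pools ran from 6.01 to 7.76 (median 6.46), from 7.01 to 8.2 (median 7.3) and from 5.73 to 8.09 (median 7.17) at the 3 ages, and these ranges overlapped. The ileum pools ran from 5.27 to 6.36 (median 5.76), from 6.06 to 7.65 (median 6.47) and from 6.79 to 8.57 (median 7.66), with day 176 wholly above day 8. With normexp background correction, CD4 differed by 0.36 in jejunum and 0.22 in ileum between day 8 and day 55, both under 1.5-fold, and in the T1 pools alone by 0.78 (adjusted p = 0.0733) and 0.39 (adjusted p = 0.394).

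**Figure D3:**
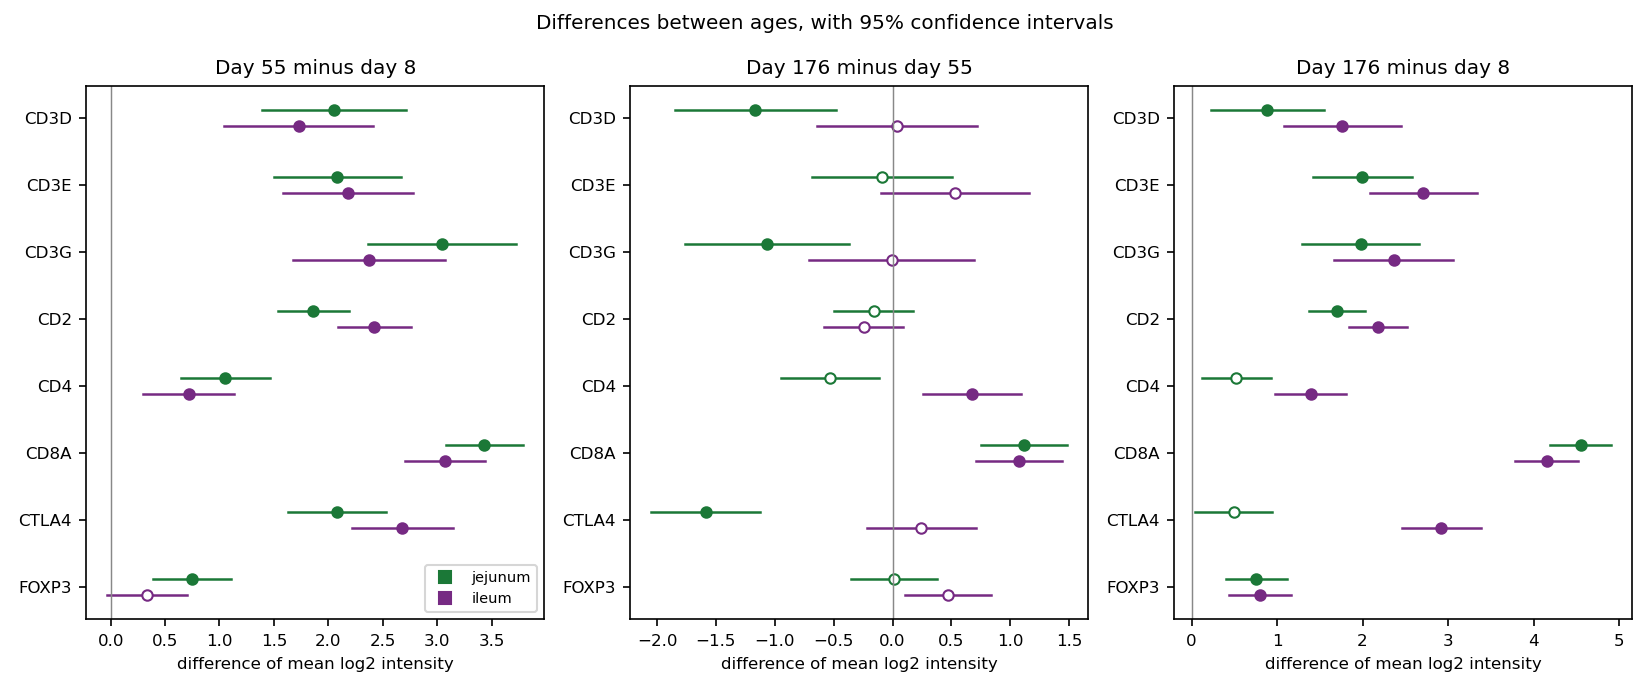
Differences of mean log2 intensity between ages for the 8 genes in jejunum (green) and ileum (purple), with 95% confidence intervals from limma; filled points passed an adjusted p under 0.05 with a fold over 1.5. CD8A lies farthest to the right between day 8 and the later ages, and in the middle panel CTLA4 falls in jejunum (−1.59) but not in ileum (0.24).

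CTLA4, the inhibitory receptor that competes with CD28 for its ligands, followed the CD3 genes up to day 55 and then parted between the tissues. Its probe was well above background on 6 of 12 jejunum and 4 of 11 ileum arrays at day 8, on 11 of 11 and 9 of 11 at day 55, and on 9 of 11 and 11 of 11 at day 176. Jejunum pools ran from 2.65 to 4.89 (median 3.59) at day 8, from 5.38 to 6.36 (median 5.76) at day 55 and from 1.91 to 5.26 (median 4.29) at day 176. Every jejunum pool of day 176 was thus below every pool of day 55, a separation downwards that 1.49% of all genes had. In ileum the pools ran from 2.88 to 5 (median 3.55), from 6.04 to 6.72 (median 6.48) and from 6.2 to 7.55 (median 6.81), and stayed high. CTLA4 rose by 2.08 (SE 0.23) in jejunum and 2.68 (SE 0.23) in ileum to day 55. After that it fell by 1.59 (SE 0.23, limma adjusted p = 1.25e-07) in jejunum, where in ileum the difference was 0.24 (SE 0.23, adjusted p = 0.423). The difference of these differences was 1.83 and passed the test itself. When arrays were scaled to their 75th percentile, which moved the median of all genes to 0.49 in this jejunum comparison, CTLA4 differed by −0.58, just under 1.5-fold, and the difference between tissues was 0.72 (adjusted p = 0.0608). With normexp background correction these were −0.46 and 0.55, also under 1.5-fold.

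FOXP3, the transcription factor of regulatory T cells, gave a signal near background on many arrays. Its brighter probe was well above background on 10 of 12, 8 of 11 and 10 of 11 jejunum arrays at the 3 ages and on 4, 6 and 11 of 11 ileum arrays. By this probe the jejunum pools ran from 3.28 to 4.39 (median 4.02), from 3.56 to 8.2 (median 5.59) and from 1.96 to 6.93 (median 5.1), and the ileum pools from 1.82 to 4.19 (median 3.43), from 3.05 to 4.57 (median 4.07) and from 4.73 to 5.62 (median 5.08). Only the ileum of day 176 stood wholly above day 8. Gene values rose by 0.75 (SE 0.18, adjusted p = 0.000403) in jejunum to day 55, and by 0.33 (SE 0.18, adjusted p = 0.112) in ileum, which did not pass the test. By day 176 they were 0.76 and 0.8 above day 8. The brighter probe alone rose by 1.56, 0.75, 1.18 and 1.91 in these same 4 comparisons. The gene values in jejunum to day 55 rose by under 1.5-fold without jejunum day 55 T3 pool 1, and also without ileum day 176 T1 pool 10. The ileum array is in neither jejunum group, so it can act there only through the normalization or the filter that chooses the probes averaged. Which of these it was, was not tested. Without ileum day 176 T1 pool 10, ileum day 176 was 0.57 above day 8, under 1.5-fold as well. With normexp background correction the gene values of FOXP3 rose by less than 1.5-fold (0.55 in jejunum to day 55), and in the T1 pools alone day 176 of jejunum was 0.21 (adjusted p = 0.621) above day 8.

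From day 55 to day 176 as a whole, 4 of 8 genes changed in jejunum and 2 of 8 in ileum, beside 36.9% and 28.5% of all genes in either direction. In jejunum 1 gene rose and 3 fell, where 20.1% of all genes rose and 16.8% fell, and in ileum both rose, where 15.6% did. In ileum CD8A and CD4 rose, CD4 by 0.68 (SE 0.21), which was 0.44 (adjusted p = 0.156) with 75th percentile scaling and under 1.5-fold (0.57) without ileum T3 pool 4. In jejunum CD8A rose and CTLA4, CD3D (−1.16, SE 0.34) and CD3G (−1.07, SE 0.35) fell. The CD3D and CD3G falls rested on the low arrays: without the arrays that stood apart they were −0.33 (adjusted p = 0.0561) and −0.42 (under 1.5-fold), and in the T1 pools alone CD3D was 0.25 and CD3G 0.04 higher at day 176. CTLA4 was −1.44 without these arrays and −2.46 in the T1 pools alone. From day 8 to day 176, 6 of 8 genes rose in jejunum and 8 of 8 in ileum, where 26.9% and 26.1% of all genes rose (48.9% and 48.6% changed). In jejunum CD4 (0.53) and CTLA4 (0.49, adjusted p = 0.0547) were the exceptions. CD3D, which rose by 0.89 (adjusted p = 0.0187) over this interval in jejunum, rose by 1.54 without the arrays that stood apart, but was 0.69 (adjusted p = 0.0589) without day 8 T2 pool 8 alone and 0.61 (adjusted p = 0.108) without day 176 T2 pool 6. Scaling to the 75th percentile changed the split of all calls between days 55 and 176 in jejunum from 54.5% to 82.3% higher and in ileum from 55% to 36.2%. Against day 8 it changed the split from 51.5% to 71.9% for ileum day 55, from 54.9% to 72% for jejunum day 176 and from 53.6% to 66% for ileum day 176.

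Other genes of the T cell pathway, 31 in lists of receptor signalling, costimulation, transcription factors with cytokines, and cytotoxic granules, moved in the same intervals. Of these 31, 19 rose and 1 fell in jejunum between days 8 and 55, where 18.1% of all genes rose and 18.9% fell, and 23 rose and 2 fell in ileum, where 24.4% rose and 23% fell. All 5 genes of receptor signalling on the array rose in ileum and 4 in jejunum, with a median difference of 1.5 and 0.85. Among them, CD247, the zeta chain of the receptor complex, rose by 2.1 (SE 0.19) in jejunum and 3.37 (SE 0.2) in ileum, and LCK, the kinase that CD4 and CD8 bring to the receptor, by 1.28 (SE 0.16) and 2.45 (SE 0.17). IFNG, the interferon of type 1 helper and cytotoxic cells, rose by 4.3 and 3.2. The granule proteases GZMA and GZMB rose by 3.91 and 3.4 in jejunum, and GZMB by 2.69 in ileum. ICOS, a costimulatory receptor, rose by 2.95 in ileum, and CD86, a ligand shared by CD28 and CTLA4, rose by 2.78 in jejunum.

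Between days 55 and 176 the same 31 genes gave 2 rises and 9 falls in jejunum, where 20.1% of all genes rose and 16.8% fell, and 5 rises and 0 falls in ileum, where 15.6% rose and 12.8% fell. The share of rises in ileum was thus near that of all genes. In jejunum IL10, a cytokine of regulatory T cells, fell by 1.99 (SE 0.22). CD274, a ligand that restrains T cells, fell there by 1.96 (SE 0.3). CD40LG, which helper T cells use to activate B cells, fell there by 1.67 (SE 0.28). CD40LG was well above background on 10 of 11 jejunum arrays of day 55 but on 6 of 11 of day 176. The size of its fall thus rests in part on values near background. The granule protease GZMA fell by 1.39 (SE 0.34). IL2 went the other way and passed as rising in jejunum. It was well above background on 10 of 11 jejunum arrays of day 176 but on 0 of 11 of day 55, so its size is not given. In ileum IL7R, a survival receptor, rose by 1.47 (SE 0.16). IL17A, the cytokine of type 17 helper cells, passed the test there as well and was well above background on 10 of 11 ileum arrays of day 176 but on 0 of 11 of day 55, so the size of its rise is not given. In jejunum 5 of the 8 costimulation and checkpoint genes fell in this interval, as CTLA4 did. With percentile scaling the CTLA4 difference in jejunum was −0.58 rather than −1.59. The differences of the listed genes under that scaling are not given here.

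Markers of other cell types moved with age too, and their part in the T cell results was not tested. All 3 B cell genes tested passed as rising in ileum between days 8 and 55, with a median of 3.63, and 1 of 3 rose in jejunum. Of the 3, FCER2 was well above background on 0 of 11 ileum arrays of day 8 and 3 of 11 of day 55. The level of the 3 B cell genes together, as a mean of centred log2 values, ran from −2.84 to 0.32 over the ileum pools of day 8 and from 1.27 to 2.94 at day 55. In jejunum it ran from −2.68 to 0.78 and from −1.05 to 0.82. Smooth muscle genes fell, 3 of 4 in jejunum and 4 of 4 in ileum, with a centred level of 0.53 to 1.81 and then −0.84 to −0.06 in jejunum, and of −0.34 to 1.57 and then −1.19 to −0.4 in ileum. Of 7 myeloid genes, 4 rose in jejunum (−1.22 to −0.13, then −0.05 to 0.84) and 5 in ileum (−1.45 to −0.24, then −0.05 to 0.54). Of 8 epithelial genes, 1 rose and 4 fell in ileum (−0.26 to 0.28, then −0.79 to 0.02), and 1 rose in jejunum (0.09 to 0.44, then 0.48 to 0.88). Of the 67 intestinal arrays, the B cell genes CD72 and CD79A were well above background on 67 and 64 and FCER2 on 5, the myeloid gene CD209 was so on 47, and the other myeloid, smooth muscle and epithelial genes on at least 66.

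Ileum and jejunum were compared at each age. At day 8, 0 of 8 T cell genes differed by limma, and 1 had an unadjusted p under 0.05 (CD2, −0.46), where 2.38% of all genes differed and 6496 of 32007 had such a p. The intervals at day 8 reached up to 1.05 log2 units below 0 (CD3E, −1.05 to 0.11) and 1.02 above (CD3G, −0.34 to 1.02). By its brighter probe CD4 was 0.78 log2 units lower in ileum at day 8 (−0.78), which passed by probe (limma adjusted p = 0.0212), while the mean with the second, dim probe did not pass.

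At day 55, 3 of 8 genes differed, beside 39.7% of all genes, and jejunum and ileum lay on other slides and in other scan sessions. CTLA4 was 0.64 (SE 0.23) higher in ileum, and CD4 (−0.62, SE 0.21) and FOXP3 (−0.72, SE 0.18) were lower. The directions of CD4 and FOXP3 turned to 0.07 and 0.22 with 75th percentile scaling, in which the median of all genes lay at 0.47 and 76.3% rather than 50% of all calls were higher in ileum. Calls were also lost without single arrays: CTLA4 was 0.58 without jejunum T2 pool 7 and CD4 −0.52 without jejunum T2 pool 5, both under 1.5-fold.

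At day 176 the tissues parted most in CTLA4. Ileum pools lay between 6.2 and 7.55 and jejunum pools between 1.91 and 5.26, so that none overlapped. The difference was 2.47 (SE 0.23, limma adjusted p = 1.02e-12) or 5.53-fold, and it passed the test in all 12 alternative settings, with a range of 1 to 3.51. On the 1 slide that held both tissues of day 176, ileum T1 lay 1.79 above jejunum T3. In all 3 of 8 genes differed at day 176, where 28.6% of all genes did. CD3D was 0.85 (SE 0.34) and CD4 0.59 (SE 0.21) higher in ileum, yet CD3D was 0.3 higher without jejunum T2 pool 8, 0.02 without the arrays that stood apart and −0.14 in the T1 pools, and with the pool as a replicate block neither passed (0.93, adjusted p = 0.148, and 0.52, adjusted p = 0.0995). CD4 was 0.48 (adjusted p = 0.0767) without ileum T3 pool 4. Among the listed T cell genes, 14 of 31 were higher in ileum and 1 lower, where 14.1% of all genes were higher and 14.5% lower, with ICOS 2.37 and IL10 2.09 higher. IL17A was higher too, with 0 of 11 jejunum arrays well above background. All 3 B cell genes passed as higher in ileum as well, by a median of 2.06. Of these, FCER2 was well above background on 0 of 11 arrays of either tissue at day 176, so its values lay near background. Of the epithelial genes, 6 of 8 were lower, by a median of −0.92. The part of the B cell or epithelial genes in the CTLA4 difference was not tested.

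**Figure D4:**
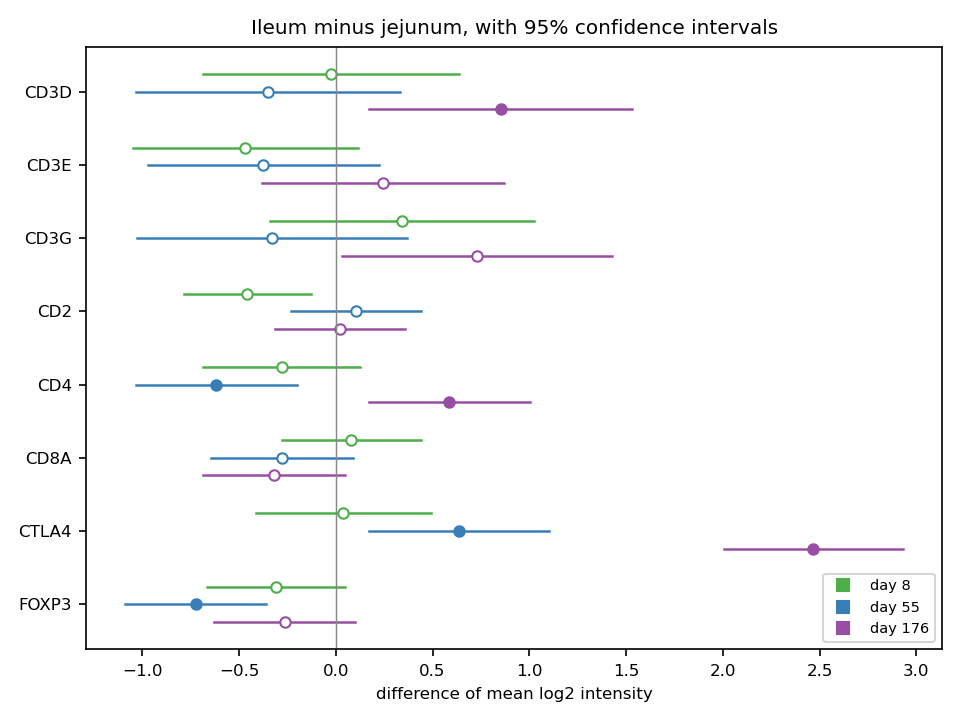
Ileum minus jejunum in mean log2 intensity for the 8 genes at day 8 (green), day 55 (blue) and day 176 (purple), with 95% confidence intervals from limma; filled points passed an adjusted p under 0.05 with a fold over 1.5. No gene is filled at day 8, and CTLA4 at day 176 (2.47) lies farthest from 0.

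For the rises from day 8 to day 55, 0 of 8 differences between the tissues passed by limma, where 34.4% of all genes differed and 1 member (CD2, 0.56) had an unadjusted p under 0.05. From day 55 to day 176 the tissues differed for CD3D (1.2), CD4 (1.2) and CTLA4 (1.83), beside 30.4% of all genes. From day 8 to day 176 they differed for CD4 (0.87) and CTLA4 (2.43), beside 20.8%. The first CD3D value rested on the low jejunum arrays, being 0.35 (adjusted p = 0.188) without those that stood apart.

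The question put by the 3 treatments is whether an antibiotic at day 4, with or without handling stress, changed expression later. Over the 7 tissue and day sets, 168 tests of the 8 genes were made, of which 4 passed and 19 had an unadjusted p under 0.05. Over all genes such a p was common too, and its number depended on the comparison. It ran from 397 of 28980 genes (ileum day 176, T3 minus T2) to 9109 of 30296 (ileum day 55, T3 minus T1). All 4 passing tests of the members lay in the jejunum of day 55. Between T2 and T1 there, 1 of 8 genes differed (CD8A), where 3.29% of all genes did, and between T3 and T1, 3 of 8 (CD2, CD3D and CD8A), where 12.2% did. Between T3 and T2 it was 0 of 8, beside 0.928%. Jejunum T1 and T2 of day 55 shared a slide, and jejunum T3 lay on another. The 3 differences between T3 and T1 therefore cannot be told apart from slide. Over all sets, 14 comparisons set treatments on different slides against each other, with 3 of the passing tests. The other 7 were within 1 slide, with 1 passing test.

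CD2 in jejunum at day 55 read 9.81, 9.63, 9.92 and 10.32 in the 4 T1 pools, 11.14, 10.72 and 10.2 in the 3 T2 pools and 11.01, 10.61, 11.08 and 10.66 in the 4 T3 pools. The T3 pools were all above the T1 pools, by 0.94 (SE 0.21, limma adjusted p = 0.00522), while T2 overlapped T1 (0.78, adjusted p = 0.0654). CD3D read 7.97, 7.68, 7.74 and 8.38 in T1, 8.98, 8.55 and 8.23 in T2 and 9.18, 8.69, 8.95 and 8.91 in T3. Again T3 lay above T1 in every pool, by 1.02 (SE 0.25, adjusted p = 0.0097), and T2 overlapped T1 (0.66, adjusted p = 0.22). By its separate probes CD3D was 1.31 and 0.72 higher in T3, the latter with an adjusted p of 0.21.

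The CD8A probes did not tell the same story. On probe A_72_P685866 the T1 pools read 6.21, 6.13, 6.42 and 6.6, the T2 pools 8.9, 8.42 and 7.41 and the T3 pools 8.65, 8.47, 7.98 and 8.3, so both treated groups lay wholly above T1, by 1.97 (SE 0.32, limma adjusted p = 0.000786) and 2.09 (SE 0.29, adjusted p = 6.41e-05). On the brighter probe A_72_P077466 the T1 pools read 10.56, 10.39, 10.36 and 10.48, the T2 pools 10.86, 10.72 and 10.48 and the T3 pools 9.78, 9.71, 10.05 and 10.03. There the difference of T2 from T1 did not pass (0.24, adjusted p = 0.502) and T3 lay wholly below T1 (−0.56, under 1.5-fold) and below T2 (−0.8, limma adjusted p by probe = 0.0235). The mean of both probes was 1.11 (SE 0.21, adjusted p = 0.00486) higher in T2 and 0.77 (SE 0.19, adjusted p = 0.0124) higher in T3 than in T1, and it therefore stood for only 1 of the probes. Without T2 pool 5 the T2 value was 0.9 (adjusted p = 0.0609). In ileum at day 55 the brighter probe was lower in T3 too, with T3 pools of 9.4 to 9.78 and T1 pools of 10.11 to 10.72, and the ileum T3 arrays lay on a slide of their own, scanned in the same session as T1 and T2.

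**Figure D5:**
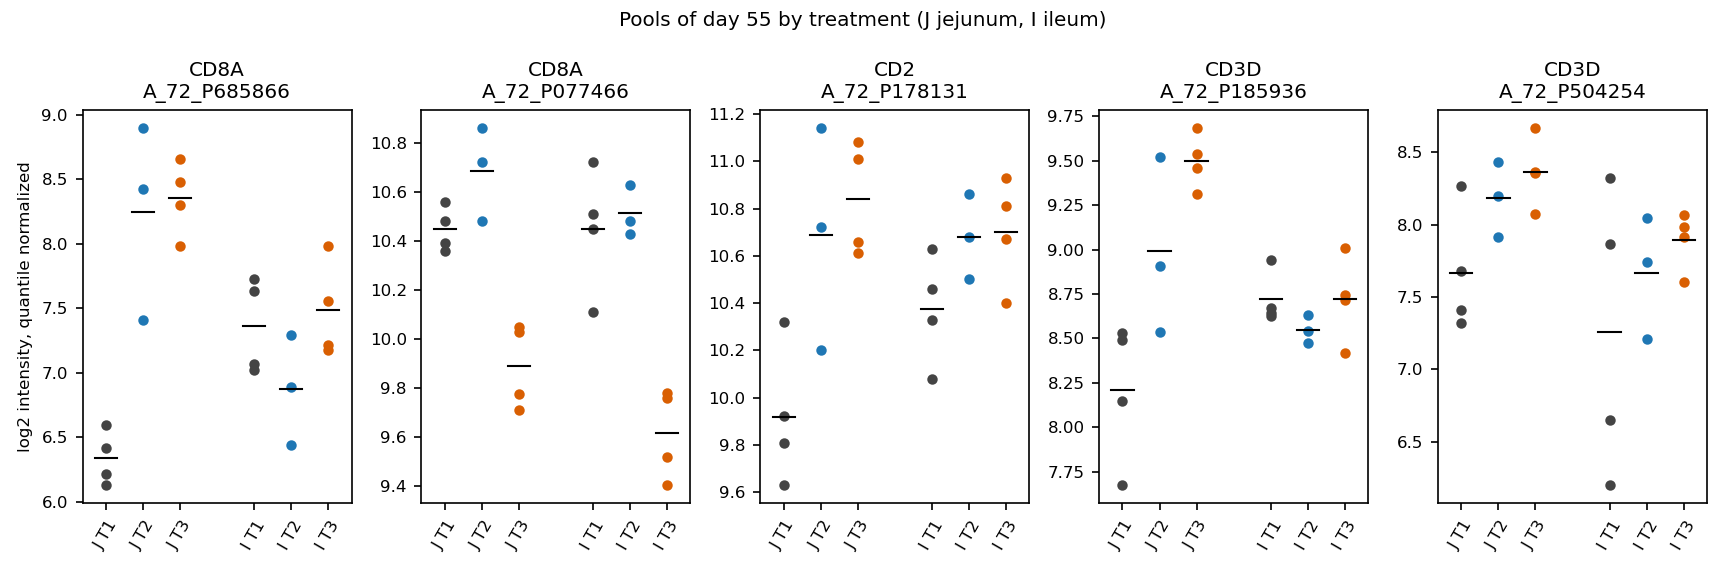
Log2 intensity of single probes of CD8A, CD2 and CD3D in every pool of day 55 by treatment, in jejunum (J) and ileum (I), with group means as lines. The first CD8A probe is higher in jejunum T2 and T3 than in T1, the second is lower in T3 in both tissues, and CD2 and CD3D are higher in jejunum T3 than in T1.

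In ileum at day 55, 0 of 24 tests of the gene values passed by limma and 0 had an unadjusted p under 0.05, beside 0.0825% (T2 minus T1), 14.8% (T3 minus T1) and 8.26% (T3 minus T2) of all genes that passed. Over all 30296 genes, such an unadjusted p was held in that order by 2649, 9109 and 6010. With each gene read by its brightest probe 3 tests passed. These were CD8A, lower in T3 than in T1 (−0.84, limma adjusted p = 0.00116) and in T2 (−0.91, adjusted p = 0.00182), and CD4, higher in T3 than in T1 (0.81, adjusted p = 0.0338). The second CD8A probe gave 0.13 and 0.64 in the same comparisons, which did not pass. The CD8A difference in gene values between T3 and T1 was 1.12 larger in jejunum than in ileum (adjusted p = 0.0229), which passed the test, as 6% of all genes did, although the brighter probe was lower in T3 in both tissues. For T2 minus T1 it was 1.33 larger (adjusted p = 0.0717, beside 0.248% of all genes that passed). For CD2 (0.6) and CD3D (0.68) in T3 the difference between tissues did not pass (adjusted p = 0.239 and 0.263). In a model with 1 treatment effect for both tissues CD2 (0.63) and CD3D (0.67) remained higher in T3, and CD8A did not pass (0.2).

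Of the other genes on the lists, CD247 (1.12) and LCK (1.06) were also higher in jejunum T3 than T1 at day 55, as were IL2RG (0.86), the chain shared by receptors of several interleukins, and FASLG (1.73), a death ligand of cytotoxic cells, while LEF1, a factor of naive T cells, was lower (−0.96). In ileum T3, CD40LG was 1.53, IL2RG 1.15, FYN 1.08 and LCK 0.61 higher than in T1. The T3 arrays lay on another slide than T1 in both tissues, so these differences cannot be told apart from slide. In ileum, 42.4% to 52% of probes were well above background in T3 and 62.7% to 73.2% in T1. Only passing genes of the largest difference in each T cell list are named, so the names do not count the lists. Between T3 and T1, 12.2% of all genes changed in jejunum and 14.8% in ileum. XBP1, a factor of secretory cells, and PIGR, the epithelial receptor that carries immunoglobulin A into the gut, were higher in jejunum T3 than T1 by a median of 1.41, and their mean centred level ran from 1.45 to 1.93 in T3 and from 0.14 to 0.5 in T1. Neither gene is particular to 1 cell type. Where 6.78% of all genes were higher and 5.38% lower, 2 of 8 epithelial genes and 1 of 7 myeloid genes were higher, 2 of 4 smooth muscle genes were higher and 1 lower, and 0 of 3 B cell genes passed. The part of these genes' cell types in the T cell differences was not tested.

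At day 8, 0 of 48 intestinal tests of treatment passed by limma, with 5 at an unadjusted p under 0.05, beside 0.0212% of all genes in jejunum for T2 minus T1 and 0% for T3 minus T1 and for T3 minus T2. In ileum it was 0.261% for T2 minus T1, 1.18% for T3 minus T1 and 0.0283% for T3 minus T2. Over all 28310 genes, such an unadjusted p was held in that order by 2029, 965 and 1101 in jejunum and 5378, 7105 and 2548 in ileum. Of the 5 member tests at such a p, the 4 in jejunum all involved T2 and the CD3 genes, among which CD3D was −0.89 in T2 against T1 with the low pool 8. At day 176, 0 of 48 passed, with 5 at such a p, beside 1.6%, 0% and 1.15% of all genes in jejunum and 0.0104%, 0.00345% and 0% in ileum, for T2 minus T1, T3 minus T1 and T3 minus T2 in that order. Over all 28980 genes, such a p was held in the same order by 7286, 1882 and 5143 in jejunum and 2407, 2795 and 397 in ileum. CTLA4 in jejunum at day 176 read 1.91, 3.31, 4.42 and 3.79 in T1, 4.26, 4.17 and 4.29 in T2 and 5.17, 5.26, 4.68 and 5.21 in T3. The T3 pools were all above the T1 and T2 pools, by 1.6 (SE 0.38) against T1, but the adjusted p was 0.308 over all genes. FOXP3 there read 2.21, 3.44, 3.47 and 4.15 in T1 and 4.69, 4.09 and 4.38 in T2, a difference of 1.01 (adjusted p = 0.0907) that passed when T1 pool 12 (1.3) or T2 pool 6 (1.14) was left out, as did T3 minus T2 (−0.92) without T1 pool 9.

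In blood at day 8, 0 of 24 tests passed by limma and 3 had an unadjusted p under 0.05, beside 0.00693% (T2 minus T1), 0.00347% (T3 minus T1) and 0% (T3 minus T2) of all genes that passed. Over all 28849 genes, such an unadjusted p was held in that order by 3084, 2029 and 1156. The 3 member tests at such a p were CD3D in T2 (1.3, adjusted p = 0.317) and CD3G in T2 (1.04, adjusted p = 0.386) and T3 (1.06, adjusted p = 0.609), all against T1. CD3G probe A_72_P088461 read 7.47, 7.59, 6.09 and 10.11 in the T1 pools 9 to 12, and 9.67 to 10.17 in the 8 pools of T2 and T3. CD3D probe A_72_P185936 read 1.2, 4.96, 3.09 and 6.46 in the same T1 pools, 6.46 to 6.77 in T2 and 5.04 to 6.48 in T3. Thus T1 pools 9, 10 and 11 were low on these probes and pool 12 was not. On the second probes of both genes the T1 pools overlapped those of T2, with 5.41 to 5.95 in T1 against 5.08 to 5.82 in T2 for CD3D, and 3.61 to 5.36 against 4 to 4.64 for CD3G. Without T1 pool 12, CD3D in T2 (1.71) and CD3G in T2 (1.56) and T3 (1.57) passed. The blood T1 arrays lay on another slide than T2 and T3, and pools 9 and 11 were among the arrays that stood apart.

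Blood was set against the intestine of day 8 in 1 fit of 35 arrays, on other slides and in another scan session, and with a scale of its own. The 5 genes that were well above background on all 12 blood arrays (CD2, CD3D, CD3E, CD3G and CD8A) were lower in jejunum and in ileum, where 41.7% and 40.7% of the 33056 genes tested were lower and 75.6% and 74% changed. The shares of all genes in this comparison are not limited to genes detected in blood, a choice that favours genes high in blood, so they are not a like-for-like background. CD3E read 11.37 to 12.39 (median 11.83) in blood, 7.64 to 10 (median 8.9) in jejunum and 7.77 to 9.1 (median 8.44) in ileum. CD2 read 9.55 to 10.84 (median 10.51), 6.6 to 7.87 (median 7.26) and 5.72 to 7.56 (median 6.76). For these and CD3G every blood pool was above every intestinal pool, as was the case for 15% of all genes. CD3E was 2.91 lower in jejunum and 3.37 lower in ileum, written as jejunum or ileum minus blood −2.91 (SE 0.18) and −3.37 (SE 0.18), and CD2 was −3.12 (SE 0.19) and −3.56 (SE 0.2). CD8A pools overlapped, with 4.22 to 7.58 in blood and 3.6 to 5.59 in jejunum. The other 3 genes passed the test as lower in the intestine too, but not every blood array measured them: CTLA4 was well above background on 0 of 12 blood arrays, against 6 of 12 in jejunum and 4 of 11 in ileum, CD4 on 7 of 12 against 12 of 12 and 11 of 11, and FOXP3 on 7 of 12 against 11 of 12 and 4 of 11. Their blood values thus lay wholly or in part near background, so no difference is given for them. The median of all genes was −0.21 in both comparisons, and −1.28 and −1.43 with 75th percentile scaling. Among the listed T cell genes, LEF1 (−5.34 and −5.55), STAT4 (−3.93 and −3.92), LCK and CD247 were lower in the intestine. CD86 (−3.31 and −3.31) and ICOS (−2.5 and −2.4) were lower too. The granule proteases went opposite ways, with GZMH lower (−3.2 and −3.66) and GZMA higher (3.12 and 3.43).

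The mean of the 3 CD3 genes over the 18 intestinal groups was compared with that of every other gene with a RefSeq symbol. The 5 of 2280 genes with the highest Pearson correlation were the chemokine CCL5 (0.972), the chemokine receptor CCR10 (0.966), the interferon-induced GTPase GBP2 (0.963), the interleukin-12 receptor chain IL12RB1 (0.948) and the fucosyltransferase FUT2 (0.944). Of the other T cell genes CD2 (0.918) and CD8A (0.862) were most like CD3, then CD4 (0.8), CTLA4 (0.771) and FOXP3 (0.477). The order rested in part on the 3 low arrays. Without them, as chosen after seeing the data, the 5 highest were CCL5 (0.986), the immunoproteasome subunit PSMB8 (0.98), the B cell survival factor TNFSF13B (0.98) and the granzymes GZMK (0.979) and GZMH (0.977), and CCR10, GBP2, IL12RB1 and FUT2 stood at places 14, 11, 13 and 8 (0.959 to 0.966). CD2 was then at 0.969, CD8A at 0.963, CD4 at 0.798, CTLA4 at 0.712 and FOXP3 at 0.657. The 18 means share slides and scan sessions within each age, so these values describe a pattern that the step from day 8 to day 55 dominates.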

How the data were processed

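RNA of pooled blood or of jejunum and ileum tissue was hybridised to 1-colour Agilent pig arrays. The authors deposited the scanner files of Feature Extraction 10.7.3.1, whose processed signal is an intensity after background subtraction. Spots marked as non-uniform or as outliers were set to missing, intensities (floor 1) were log2 transformed and quantile normalized over the arrays of a fit, probes under the 20th percentile were removed, and probes of 1 gene were averaged. A probe with a marked spot was kept when every group still had at least 2 values, which concerned 1 CD3E spot. Models were fitted in R 4.3.3 using the package limma 3.58.1 and, for random blocks, statmod 1.5.0, with Benjamini-Hochberg adjustment over all genes of the fit, and tested on simulated data. The members and gene lists were chosen with earlier results of these data known. 1 further gene of the marker lists is not reported here, by name or in the lists' counts and levels. By name the text gives all members, at most 2 passing genes of the largest difference per T cell list and comparison, and the 5 genes most like CD3. RefSeq symbols (Sscrofa11.1) were matched by accession for 5461 probes. Normexp correction used the median signal. Alternatives are given in the closing section. Pools with the same sows at day 8 (pools 1, 5 and 9, and so on) deviated together in blood, with a lowest correlation of 0.0677, and pools of the same piglets in jejunum and ileum with a mean of 0.176 and a lowest of 0.00107; the meaning of the numbers at days 55 and 176 is not given in the sources used here. The number of arrays limits the precision.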

Additional observations from a re-analysis of the deposited data

Results flagged for a closer look

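In 8 of 128 groups of 4 pools (6.25%), the lowest pool lay far from the others, by a gap to the nearest pool, as a share of the group's range, above Dixon's critical value, and chance alone gives about 5% of groups. In the intestine these were CD3D (0.831) and CD3G (0.871) in jejunum day 8 T2 pool 8, CD3G in jejunum day 176 T3 pool 4 (0.837), CTLA4 in jejunum day 176 T3 pool 3 (0.842) and CD8A in ileum day 176 T1 pool 9 (0.906). In blood they were CD2 in T1 pool 10 (0.865), CD3E in T3 pool 1 (0.896) and CD4 in T2 pool 5 (0.933).

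The change from day 55 to day 176 differed between ileum and jejunum by limma for CD3D (1.2), CD4 (1.2) and CTLA4 (1.83), and the change from day 8 to day 176 for CD4 (0.867) and CTLA4 (2.43), each value being the ileum change minus the jejunum change on the log2 scale.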

How the results depend on the processing

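Of 274 recomputed counts of T cell genes that passed, over 21 comparisons, 246 stayed within 1.5 times the reported count and 28 did not. For single genes, 697 values kept their direction and side of the threshold, 72 no longer passed and 7 turned. For ileum minus jejunum, the count at day 176 was 1 rather than 3 in the T1 pools, with each day fitted alone, with normexp background correction and with the pool as a replicate block; at day 55 it was 1 rather than 3 in the T1 pools and 0 with normexp; at day 8 it was 1 rather than 0 by the brightest probe and with the filter on signals well above background. For the tissue difference in age changes, days 55 to 176 gave 0 rather than 3 with normexp, days 8 to 176 gave 1 rather than 2 in the T1 pools and with normexp, and days 8 to 55 gave 2 with 75th percentile scaling and 1 in the T1 pools and by the brightest probe, rather than 0. From day 55 to day 176 the ileum gave 1 rather than 2 with 75th percentile scaling and normexp and 0 in the T1 pools, and the jejunum 2 rather than 4 in the T1 pools. With 1 treatment effect for both tissues, 2 tests passed at day 55 in jejunum (rather than 4) and 2 in ileum (rather than 0), where 3 passed by the brightest probe and 1 with the filter on signals well above background.

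Leaving out each array in turn, counts ran from 1 to 3 for ileum minus jejunum at day 176, from 1 to 2 for the tissue difference in days 8 to 176, from 0 to 1 for that in days 8 to 55, from 2 to 4 for that in days 55 to 176, from 1 to 2 for ileum days 55 to 176, from 0 to 3 for treatments in blood, from 0 to 1 for treatments in jejunum at day 176 and from 3 to 5 for those at day 55. For days 8 to 55 they ran from 7 to 8 in jejunum and from 6 to 7 in ileum. For days 8 to 176 they ran from 5 to 8 in jejunum and from 7 to 8 in ileum. Jejunum days 55 to 176 gave 4 to 5, and ileum minus jejunum at day 55 gave 2 to 3.

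In the T1 pools alone CD3D turned to −0.186 for the tissue difference in days 55 to 176, to −0.136 for ileum minus jejunum at day 176 and to 0.249 for jejunum days 55 to 176, where CD3G turned to 0.0378. With 75th percentile scaling ileum minus jejunum at day 55 turned to 0.0686 for CD4 and 0.221 for FOXP3, and by the brightest probe CD8A in jejunum T3 minus T1 at day 55 turned to −0.557. The causes were not tested. That scaling also moved the share of calls that were higher from 49.5% to 29.4% for ileum minus jejunum at day 176, from 19.1% to 6.55% at day 8, from 45.1% to 26.4% for ileum and from 44.9% to 27.3% for jejunum minus blood, from 46.2% to 17.6% and from 50% to 75.7% for the tissue differences in days 55 to 176 and 8 to 55, and for ileum T3 minus T1 from 56.9% to 83% at day 55 and from 41.4% to 70.4% at day 8.

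The replicate block left the other counts as reported, such as 8 for jejunum days 8 to 55 and 4 for treatments in jejunum at day 55. Since 21 of 21 groups lay whole on 1 slide, a slide block had nothing left to estimate: limma returned a correlation of 0 for it, which leaves the fits as reported. Leaving out jejunum day 8 T2 pool 8 does not apply to the treatments in blood. CTLA4 in blood and the dim probes of CD4 and FOXP3 were near background, so small differences in them were not detectable.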
